A study of Nicotiana tabacum with 6 samples.

Results

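Transcripts of the plastidial methylerythritol phosphate (MEP) pathway were examined in mature tobacco leaf (Nicotiana tabacum), at 5 of the 68476 loci of the deposited table. The members were taken by gene number and named from RefSeq: ISPH (ncbi_107760258 in the table, LOC107760258 in RefSeq), dxs LOC107790348 (ncbi_107790348), dxs LOC107818796 (ncbi_107818796), DXS LOC107773391 (ncbi_107773391) and DXR LOC107818871 (ncbi_107818871). All 5 were matched to a RefSeq row, and all 5 averaged 0.5 FPKM or more, the minimum for testing. Poly(A) RNA-seq covered 3 libraries labelled OE-NtispH, described in the labels as overexpressing NtispH (the tobacco ISPH gene), and 3 labelled WT, described as wild-type plants grown in the same conditions. The sources used here do not give the promoter, the number of transgenic lines, the plants' age or any pooling of plants. The labels also do not say that libraries of 1 group came from separate plants, so p-values measure only how far these libraries differ, which may be technical.

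The MEP pathway runs in the plastid and supplies the precursors of carotenoids, of the phytyl chain of chlorophyll, of plastoquinone and of the diterpenes of tobacco glandular trichomes. 1-Deoxy-D-xylulose 5-phosphate synthase (DXS) joins pyruvate and glyceraldehyde 3-phosphate at the entry of the pathway and is known in plants as a step with strong control over its flux. DXR converts the product to methylerythritol phosphate, and ISPH, an iron-sulfur reductase, releases isopentenyl and dimethylallyl diphosphate in the last step. The deposited unit, FPKM, counts fragments relative to transcript length and to the library's mapped fragments, so genes can be compared within a library. Comparisons between libraries also depend on their RNA composition, for which FPKM does not correct. Tobacco is an allotetraploid, and fragments from near-identical parental copies may have been shared between loci.

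The libraries summed to 747832 to 767079 FPKM in OE-NtispH and 761761 to 770304 FPKM in WT, and no pair held identical values. Read numbers are unknown. The commonest ratio of low values put depth at 1.02 to 1.17 times that of WT replicate 1, in a search limited to ratios near 1. The mesophyll markers of the leaf were present in every library, with summed levels of 5099 to 6994 FPKM in OE-NtispH and 8813 to 10117 FPKM in WT over 7 loci. Of 7 root loci, 5 stood at 0 in every library, among them A622 and the PMT genes of nicotine synthesis, while QPT2 reached 37.6 FPKM, and the floral genes summed to at most 0.573 FPKM. Across all loci, 737 of 40725 (1.81%) passed the group test, limma on log2(FPKM + 1) with a Benjamini-Hochberg adjusted p below 0.05, with 506 higher and 231 lower in OE-NtispH. That split was 136 against 194 under median-of-ratios scaling and 235 against 360 under quantile normalization. The median log2 change over all tested loci was 0.13.

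ISPH, the gene named in the overexpression label, was abundant in most libraries, and its level did not sort them by label. It stood at 2761, 684.6 and 853.7 FPKM in OE-NtispH replicates 1, 2 and 3, and at 108.2, 3038 and 558.6 FPKM in WT replicates 1, 2 and 3. Both the highest and the lowest of the 6 values were therefore in libraries labelled WT, 28.1-fold apart, and the OE-NtispH values lay between them. By rank among all loci, ISPH was number 11, 159 and 119 in the OE-NtispH libraries and number 732, 19 and 182 in the WT libraries. It made up 0.369%, 0.0893% and 0.113% of all FPKM in OE-NtispH replicates 1 to 3, and 0.0142%, 0.394% and 0.0725% in WT replicates 1 to 3. An OE-NtispH library exceeded a WT library in 6 of the 9 possible pairs.

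The ISPH change between the labelled groups was 1.04 on the log2(FPKM + 1) scale (SE 1.37; limma, adjusted p = 0.667), with a 95% interval of -2.49 to 4.57. It was smaller than the spread between replicates, and the interval holds large changes in both directions. Leaving out WT replicate 1 gave a log2 change of -0.15 (limma, adjusted p = 0.934), and leaving out WT replicate 2 gave 2.25 (limma, adjusted p = 0.345). Native and transgenic transcripts are not separated in the table, so these values hold whatever was assigned to the locus. The ISPH levels thus do not sort by the labels. With these files, exchanged or mislabelled libraries, a true lack of difference and an increase hidden by the spread between replicates cannot be told apart. Groups are called by their labels throughout, and every direction below is between libraries labelled OE-NtispH and libraries labelled WT.

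**Figure D1:**
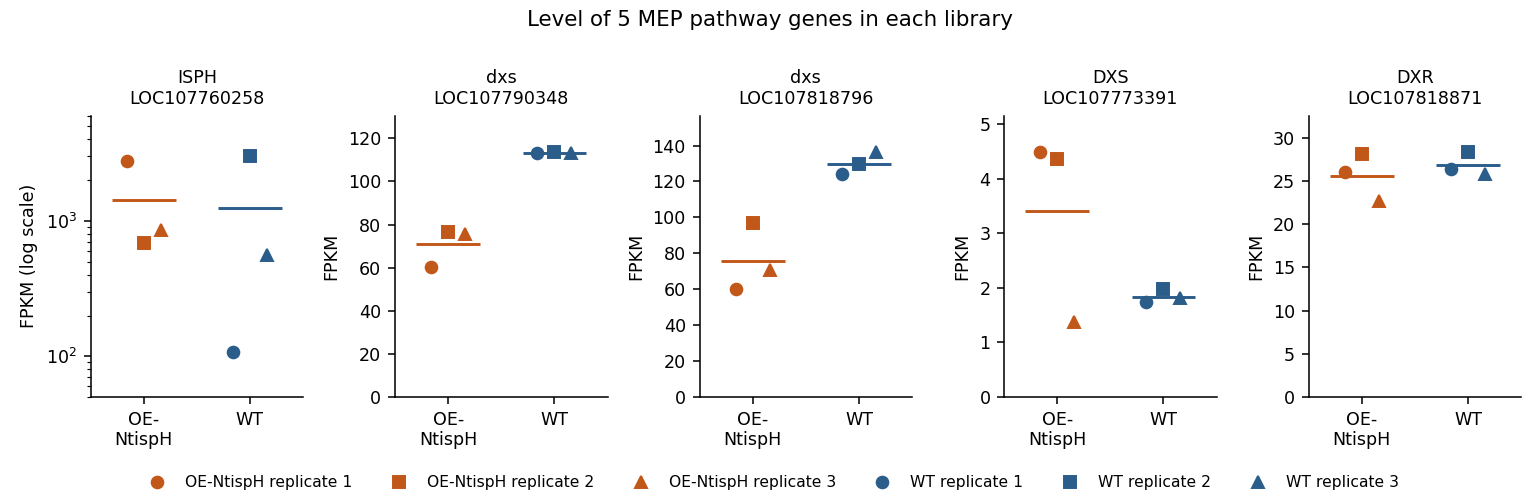
FPKM of the 5 genes in each library, with OE-NtispH left of WT, symbols for replicate numbers and a line at the mean of each group; the ISPH axis is logarithmic and the others start at 0. The ISPH values of both groups overlap, from 108.2 to 3038 FPKM, while both dxs loci are lower in every OE-NtispH library than in any WT library.

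The spread of ISPH within groups stood apart from that of other abundant transcripts. Its standard deviation within groups was 1.86 on the log2 scale, against a median of 0.20 over the 814 loci averaging 100 FPKM or more, and it was the largest of them, the next being 1.58. The ratio of WT replicate 2 to WT replicate 1 was 28.1 for ISPH, whereas the next ratio among these 814 loci was 2.92 and their median 0.99. OE-NtispH replicate 1 exceeded OE-NtispH replicate 2 by 4.03-fold at ISPH, again the largest such ratio among the 814 loci. These comparisons were made after the ISPH values were seen and describe the libraries only.

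**Figure D2:**
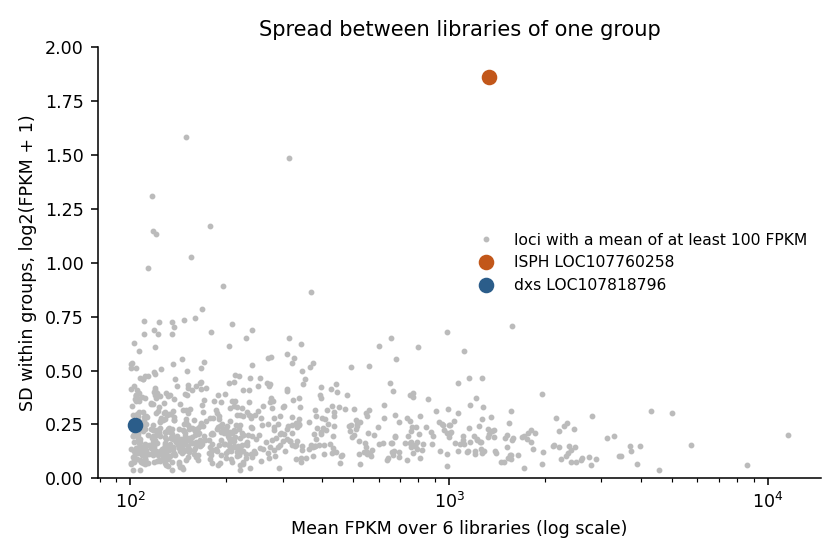
Standard deviation within groups of log2(FPKM + 1), against mean FPKM on a log axis, for the 814 loci averaging 100 FPKM or more (grey), with ISPH and dxs LOC107818796 marked. ISPH lies above all other points at 1.86, and dxs LOC107818796 at 0.25 lies among them.

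At the entry step, a pair of dxs loci held nearly all FPKM of the 3 loci with a dxs or DXS symbol in every library, and their summed level was lower in OE-NtispH. The first, dxs LOC107790348, had 60.5, 76.7 and 75.6 FPKM in OE-NtispH replicates 1 to 3, and 113.4, 113.6 and 113.2 FPKM in WT replicates 1 to 3. Every OE-NtispH library was below every WT library, and the WT libraries hardly differed. Its mean was 70.9 ± 9.06 FPKM in OE-NtispH and 113.4 ± 0.16 FPKM in WT (SD, n = 3 each), or 37.5% lower. It fell by 0.68 on the log2 scale (SE 0.13; limma, adjusted p = 0.0473), or -0.81 relative to the median of all loci.

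The other copy, dxs LOC107818796, had 60.1, 96.9 and 70.8 FPKM in OE-NtispH replicates 1 to 3, and 124.2, 129.5 and 136.3 FPKM in WT replicates 1 to 3. Here too the groups did not overlap, with OE-NtispH replicate 2 nearest to the WT libraries. Its mean was 75.9 ± 18.9 FPKM in OE-NtispH and 130.0 ± 6.05 FPKM in WT (SD, n = 3 each), or 41.6% lower. Its log2 change of -0.80 had a 95% interval of -1.20 to -0.39 and missed the threshold after adjustment (limma, adjusted p = 0.0564). Without OE-NtispH replicate 2 the log2 change was -0.98 (limma, adjusted p = 0.0257), in a fit where 1355 of 40725 loci passed. It missed the threshold without any other single library, with an adjusted p (limma) of 0.164 and 0.0564 without OE-NtispH replicates 1 and 3 and of 0.104, 0.194 and 0.169 without WT replicates 1, 2 and 3.

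DXS LOC107773391 was a minor locus at this step. It had 4.49, 4.36 and 1.38 FPKM in OE-NtispH replicates 1 to 3, and 1.73, 1.98 and 1.81 FPKM in WT replicates 1 to 3. OE-NtispH replicates 1 and 2 were above all WT libraries, and OE-NtispH replicate 3 was below all of them. The log2 change was 0.54, with a 95% interval of -0.18 to 1.26 (limma, adjusted p = 0.304). Without OE-NtispH replicate 3 it was 0.93 (limma, adjusted p = 0.0142), so 1 library decides whether this locus passes. In that fit 3103 of 40725 loci passed, against 737 with all 6 libraries.

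DXR, which acts next in the pathway, had 26.0, 28.2 and 22.6 FPKM in OE-NtispH replicates 1 to 3, and 26.4, 28.3 and 25.8 FPKM in WT replicates 1 to 3. The groups overlapped over nearly their whole range. Relative to the median of all loci, its log2 change was -0.20. As fitted, the log2 change was -0.07 with a 95% interval of -0.34 to 0.20 (limma, adjusted p = 0.733), and without OE-NtispH replicate 3 it was 0.012. The fitted changes of both dxs loci, -0.68 and -0.80, lay below this interval.

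In all, 1 of the 5 members passed the group test as lower and 0 as higher, against a background of 0.567% of all tested loci called lower and 1.24% called higher. The count of 1 rests on an adjusted p close to the threshold. The call of dxs LOC107790348 ended without OE-NtispH replicate 1 and without WT replicate 1, 2 or 3 (limma, adjusted p of 0.135, 0.0954, 0.190 and 0.146), with log2 changes of -0.57 to -0.68. With 1 of these 4 libraries left out, 0 to 17 loci of the whole table passed limma, with 7209 to 10207 at unadjusted p below 0.05. With the replicate number as a block it also ended (limma, adjusted p = 0.081). Between groups, 2 of the 5 members did not overlap, both lower in OE-NtispH, whereas 32.5% of all tested loci did not overlap, 8.59% with OE-NtispH lower and 23.9% with OE-NtispH higher.

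Both abundant dxs copies were of like level, with neither dominating. Of the summed FPKM of the 3 entry-step loci, dxs LOC107790348 held 48.4%, 43.1% and 51.2% in OE-NtispH replicates 1 to 3, and 47.4%, 46.3% and 45.1% in WT replicates 1 to 3. For dxs LOC107818796 the shares were 48.1%, 54.5% and 47.9% in OE-NtispH and 51.9%, 52.9% and 54.2% in WT. Neither share differed between the groups beyond its spread (two-sided exact permutation tests, n = 3 each, p = 0.6 and 0.4). In the design of 3 against 3 libraries such a test cannot go below 0.1.

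The share of DXS LOC107773391 was small in every library and more variable in OE-NtispH. It was 3.59%, 2.45% and 0.937% in OE-NtispH replicates 1 to 3, and 0.725%, 0.807% and 0.721% in WT replicates 1 to 3. All OE-NtispH shares were above all WT shares (exact permutation p = 0.1, the smallest possible). In OE-NtispH replicate 3 the locus itself was at its lowest level of all libraries, 1.38 FPKM, and its share of 0.937% was taken of a dxs sum lower than in any WT library. The ratio of summed dxs to DXS LOC107773391 was 26.9, 39.8 and 105.8 in OE-NtispH, and 137.0, 122.9 and 137.6 in WT.

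**Figure D3:**
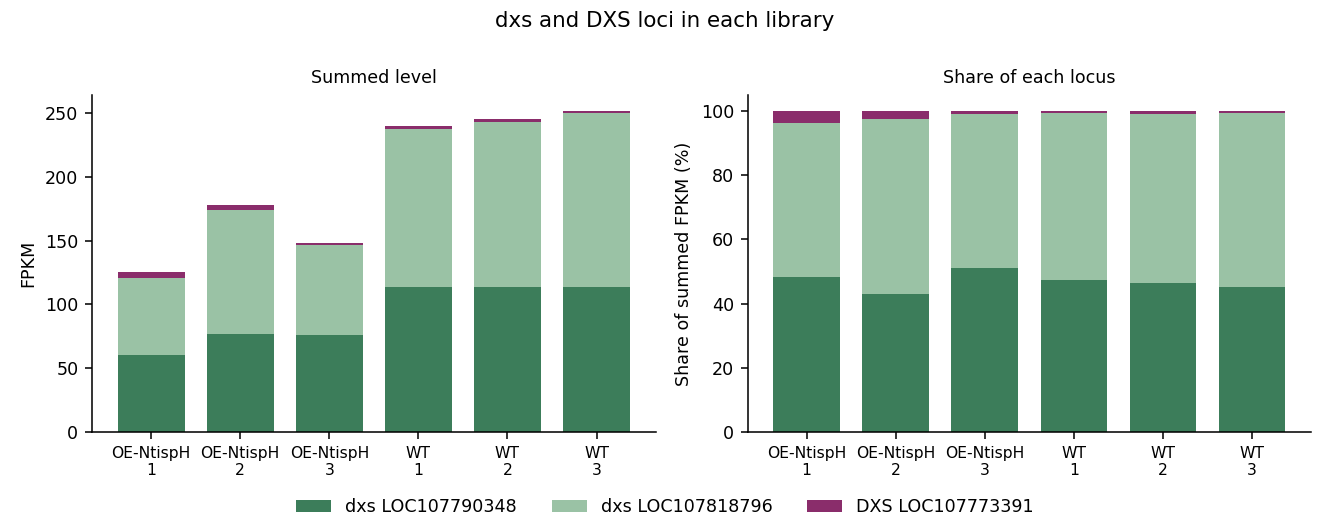
Left, FPKM of the dxs and DXS loci stacked for each library; right, the share of each locus in that sum, in percent, with the OE-NtispH libraries left of the WT libraries. The sum is 125.1 to 177.9 FPKM in OE-NtispH and 239.3 to 251.3 FPKM in WT, while dxs LOC107790348 holds 43.1% to 51.2% in all 6 libraries.

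Sums were taken over the 3 loci with a dxs or DXS symbol. Copies of these genes, of DXR or of ISPH without a symbol were not looked for. The sum was 125.1, 177.9 and 147.8 FPKM in OE-NtispH replicates 1 to 3, and 239.3, 245.1 and 251.3 FPKM in WT replicates 1 to 3. The means were 150.3 ± 26.5 FPKM in OE-NtispH and 245.2 ± 6.00 FPKM in WT (SD, n = 3 each), or 38.7% lower (exact permutation p = 0.1). The balance between the dxs loci and DXR moved with this sum. Summed dxs was 4.63, 6.16 and 6.46 times DXR in OE-NtispH, against 8.99, 8.58 and 9.65 times DXR in WT, without overlap. As log2 ratios, dxs LOC107790348 over DXR differed by -0.61 and dxs LOC107818796 over DXR by -0.72 between OE-NtispH and WT (exact permutation p = 0.1 each, 0.167 after adjustment over 5 ratios, n = 3 per group).

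The balance between ISPH and the summed dxs and DXS loci followed no label. ISPH stood at 22.1, 3.85 and 5.78 times the summed dxs and DXS level in OE-NtispH replicates 1 to 3, and at 0.452, 12.4 and 2.22 times that level in WT replicates 1 to 3. In WT replicate 1 alone the summed dxs and DXS level was the higher of both. The log2 ratio differed by 1.76 between OE-NtispH and WT (exact permutation p = 0.4, n = 3 per group), within its spread. For dxs LOC107790348 over dxs LOC107818796 the log2 ratio differed by 0.12 (exact permutation p = 0.5, n = 3 per group).

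Libraries of unlike label and like ISPH level were set side by side, as values of single libraries with no test. The pair richest in ISPH was OE-NtispH replicate 1, at 2761 FPKM, and WT replicate 2, at 3038 FPKM. In these libraries dxs LOC107790348 was at 60.5 FPKM in OE-NtispH and 113.6 FPKM in WT, and dxs LOC107818796 at 60.1 FPKM in OE-NtispH and 129.5 FPKM in WT. At an intermediate ISPH level, OE-NtispH replicate 2 had 76.7 FPKM of dxs LOC107790348 at 684.6 FPKM of ISPH, against 113.2 FPKM at 558.6 FPKM of ISPH in WT replicate 3. In this pair dxs LOC107818796 was at 96.9 FPKM in OE-NtispH and 136.3 FPKM in WT. In both pairs the OE-NtispH library was the lower one at both dxs loci. DXS was at 4.49 FPKM in OE-NtispH and 1.98 FPKM in WT in the first pair, and at 4.36 FPKM in OE-NtispH and 1.81 FPKM in WT in the second. DXR was at 26.0 FPKM in OE-NtispH and 28.3 FPKM in WT in the first pair, and at 28.2 FPKM in OE-NtispH and 25.8 FPKM in WT in the second. DXS was thus higher in the OE-NtispH library of both pairs, and DXR was lower in one and higher in the other. The direction of DXS depends on the choice of pairs. OE-NtispH replicate 3, at 853.7 FPKM of ISPH, was in neither pair, and its DXS level of 1.38 FPKM was below every WT library. Both of its dxs levels, 75.6 and 70.8 FPKM, were also below every WT library. Within WT, ISPH spanned 28.1-fold while dxs LOC107790348 stayed between 113.2 and 113.6 FPKM. Within OE-NtispH, the library richest in ISPH had the lowest level of both dxs loci.

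Over the 6 libraries, 4 correlations with ISPH were computed on the log2 scale, and none passed. Pearson's r was -0.43 for dxs LOC107790348 (exact permutation p = 0.353) and -0.40 for dxs LOC107818796 (exact permutation p = 0.419). It was 0.37 for DXS (exact permutation p = 0.458) and 0.13 for DXR (exact permutation p = 0.781), and the lowest of the 4 adjusted values was 0.611. Spearman's rho was -0.14, -0.31, 0.43 and 0.26 in the same order of genes (exact permutation p of 0.803, 0.564, 0.419 and 0.658, adjusted p of 0.803 for each).

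These correlations rested on single libraries. The 2 libraries farthest from the median ISPH level were WT replicates 1 and 2, so WT replicate 3 was the only WT library without them. In the libraries left, r was -0.83 for each dxs locus, 0.53 for DXS and -0.03 for DXR (n = 4, exact permutation p of 0.0833, 0.0833, 0.583 and 0.833). With n = 4 such a p cannot go below 0.0833. Without WT replicate 2, the WT library with high ISPH, r was -0.85 for dxs LOC107790348 (n = 5, exact permutation p = 0.0167, adjusted p = 0.0667) and -0.78 for dxs LOC107818796. Without OE-NtispH replicate 1 these values were -0.13 and -0.10, and without WT replicate 1 they were -0.15 and -0.24. In the 4 and 5 libraries left where r was strongest, every WT library had less ISPH than any OE-NtispH library. Group and ISPH level cannot be told apart there.

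**Figure D4:**
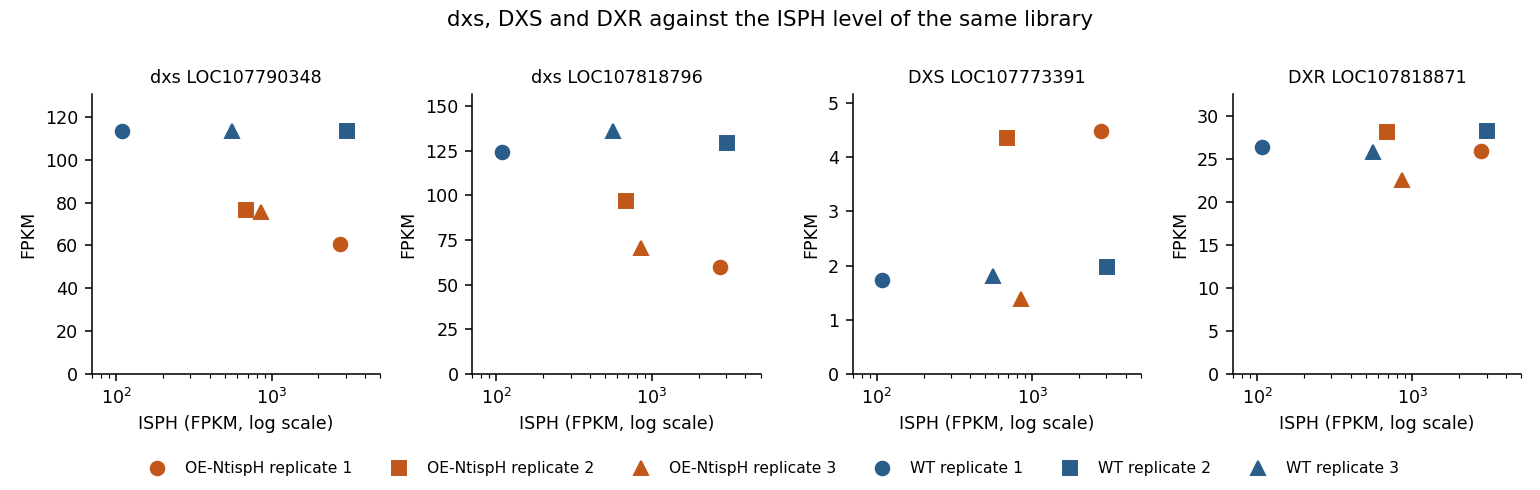
FPKM of dxs, DXS and DXR, on axes from 0, against the ISPH level of the same library on a log axis, coloured by group with a symbol for each replicate number. The WT points of dxs LOC107790348 lie on a level line at 113.2 to 113.6 FPKM from 108.2 to 3038 FPKM of ISPH, and the OE-NtispH points lie below it.

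The same question was put to all loci with limma, with the ISPH level as a continuous term in place of the group. Per doubling of ISPH, dxs LOC107790348 changed by -0.09 on the log2 scale (95% interval -0.30 to 0.11) and dxs LOC107818796 by -0.11 (-0.35 to 0.13). DXS changed by 0.11 per doubling (-0.14 to 0.36) and DXR by 0.0083 (-0.11 to 0.12), and none of the 4 passed (limma, adjusted p = 1.00 for each). Of 40724 loci, 0 passed (0%) and 627 had an unadjusted p below 0.05 (1.54%), against 26.4% for the group label. The fit on ISPH level leaves any group difference in its residual spread, so these shares are not a like comparison. With both terms in 1 model, the group term was -0.65 for dxs LOC107790348 (95% interval -1.01 to -0.28) and -0.76 for dxs LOC107818796 (-1.24 to -0.28). The ISPH term in that model was -0.03 per doubling for dxs LOC107790348 (-0.14 to 0.08) and -0.04 for dxs LOC107818796 (-0.18 to 0.11).

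In the model with both terms no group term passed after adjustment (0 of 40724 loci, with 8721 or 21.4% at unadjusted p below 0.05). The adjusted p was 0.135 for dxs LOC107790348 and 0.144 for dxs LOC107818796, both of them limma values with 3 residual degrees of freedom before moderation. For the ISPH term 0 loci passed, with 839 at unadjusted p below 0.05 (2.06%). With all 6 libraries, the dxs intervals of the group term lay below 0, while those of the ISPH term included 0. An interval that includes 0 does not show that there was no relation. Without WT replicate 2, the group term was -0.50 (SE 0.29; limma, adjusted p = 0.697) for dxs LOC107790348. For dxs LOC107818796 it was -0.59 (SE 0.36; limma, adjusted p = 0.703). In that fit every WT library had less ISPH than any OE-NtispH library, so the contrast of both terms depends largely on WT replicate 2.

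**Figure D5:**
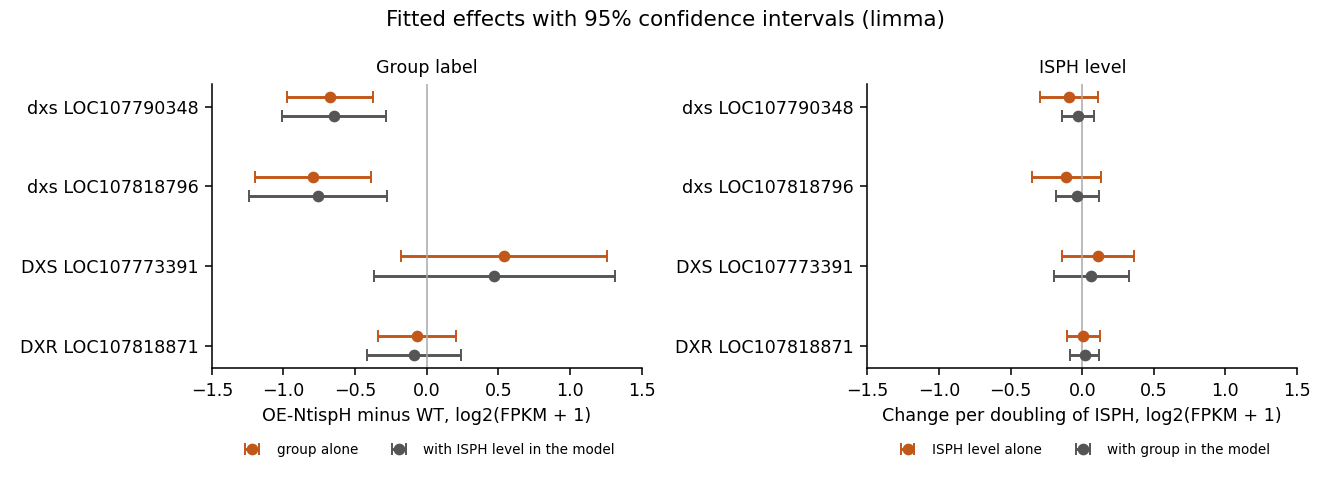
Fitted effects (points) and 95% confidence intervals (bars) on the log2(FPKM + 1) scale from limma, for the group label at left and per doubling of ISPH at right, each alone and with the other term in the model. In these fits of all 6 libraries, both dxs intervals lie below 0 for the group label, at -0.68 and -0.80 alone, and include 0 for the ISPH level.

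The list of pathway symbols held 2 further loci, ipi1 and ipi2, genes of isopentenyl diphosphate isomerase, which interconverts both products of ISPH. They were matched by symbol only, and whether either enzyme acts in the plastid was not examined. Steps between DXR and ISPH were not analysed here. The level of ipi2 (LOC107808635) was 24.0, 22.4 and 22.4 FPKM in OE-NtispH replicates 1 to 3, and 69.3, 44.3 and 34.0 FPKM in WT replicates 1 to 3. All OE-NtispH values were below all WT values, but the log2 change of -1.01 missed the threshold (limma, adjusted p = 0.0624). The level of ipi1 (LOC107828834) was 42.1, 30.1 and 32.2 FPKM in OE-NtispH, and 29.2, 30.0 and 28.7 FPKM in WT, with a log2 change of 0.23 (limma, adjusted p = 0.337). Here all OE-NtispH values were above all WT values, the nearest being 30.1 FPKM in OE-NtispH and 30.0 FPKM in WT. Of the 7 loci matched by symbol 4 had a change below 0 and 3 above, with a median of -0.07, whereas 33.7% of all tested loci were below 0, with a median of 0.13. The test was passed by 1 of the 7, as lower, beside 0.567% of all tested loci called lower and 1.81% called in either direction.

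The named loci most like dxs LOC107790348 were atpC, GAPB, OEE2 and psy-1. Among 698 named loci averaging 5 FPKM or more, the 4 highest Pearson correlations with it over the 6 libraries were those of atpC (LOC107813955, r = 0.998), GAPB (LOC107801158, r = 0.990), OEE2 (LOC107785785, r = 0.988) and psy-1 (LOC107772713, r = 0.987). They encode a chloroplast ATP synthase subunit, a Calvin cycle dehydrogenase, a protein of the oxygen-evolving complex and phytoene synthase, the entry enzyme of carotenoids. GAPB averaged 106.1 ± 22.4 FPKM in OE-NtispH and 223.4 ± 19.6 FPKM in WT, with a log2 change of -1.09, and psy-1 61.6 ± 10.5 FPKM in OE-NtispH and 115.3 ± 10.8 FPKM in WT, with one of -0.90 (SD, n = 3 each). By limma both were called, at an adjusted p of 0.0363 for GAPB and 0.0388 for psy-1. The other two did not pass, atpC with a log2 change of -0.54 (limma, adjusted p = 0.0617) and OEE2 with one of -0.38. The mean of OEE2 was 1358 ± 112 FPKM in OE-NtispH and 1763 ± 38.8 FPKM in WT (SD, n = 3 each; limma, adjusted p = 0.12). All 4 were picked for likeness, over the same 6 libraries, to a locus that is lower in OE-NtispH. Their group tests are therefore not independent of that choice. Of all tested loci, 88 reached an r of 0.987 or more, so these 4 do not describe the whole set. The other copy, dxs LOC107818796, had an r of 0.956, which 1.27% of all tested loci reached, and ipi2 had an r of 0.81, which 7.31% reached.

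The named loci most like ISPH followed its pattern over the libraries but not its range. Among the same named candidates, the 4 highest correlations were those of NtROS1 (LOC107813371, r = 0.90), a DNA demethylase gene, H1C12 (LOC107784947, r = 0.90), CIP2a (LOC107820349, r = 0.88) and psbA (r = 0.88), the plastid gene for the D1 protein of photosystem II. NtROS1 ranged only 1.32-fold over the libraries, H1C12 1.16-fold and CIP2a 1.30-fold. The level of psbA was 213.6, 74.6 and 120.9 FPKM in OE-NtispH and 65.7, 151.5 and 83.7 FPKM in WT, a 3.25-fold range. As a plastid transcript it is poorly captured with oligo(dT). Over all 40724 tested loci, named or not, 199 reached an r of 0.877 with ISPH. An r with ISPH at least as large, in either direction, as that of dxs LOC107790348 was found for 30.2% of all tested loci.

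Some other features of the libraries moved with the group label and others did not. Between 23.4% and 26.5% of all FPKM in OE-NtispH fell on each library's 100 most abundant loci, and between 30.6% and 32.2% in WT. Of the mesophyll markers, 6 of 8 symbols were matched, at 7 loci. All 7 had lower means in OE-NtispH, whereas 33.7% of all tested loci had a log2 change below 0. The test was passed by 3 of them, Lhcb6, GAPB and POR2, beside 0.567% of all tested loci called lower. The wound markers PI-Ia, PI-Ib and KED summed to 993 to 1527 FPKM in OE-NtispH and to 314 to 507 FPKM in WT. PI-Ia and PI-Ib made up most of that sum and passed the test as higher, beside 1.24% of all tested loci called higher. KED averaged 9.81 FPKM in OE-NtispH and 21.7 FPKM in WT with overlapping values (limma, adjusted p = 0.872). It was at 15.2, 12.1 and 2.12 FPKM in OE-NtispH replicates 1 to 3, and at 3.03, 5.33 and 56.8 FPKM in WT replicates 1 to 3. The higher WT mean of KED thus rests on WT replicate 3. Of the glandular trichome markers, 2 of 6 symbols were matched, NtABS and NtPDR1, and they summed to 124 to 237 FPKM in OE-NtispH and 120 to 156 FPKM in WT, with overlap and without passing (limma, adjusted p of 0.912 and 0.272). The part of these features in the dxs result was not tested. In bulk leaf, fewer cells of a type and less RNA per cell cannot be told apart.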

How the data were processed

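The authors deposited 1 table of FPKM values for 6 libraries, made from poly(A) RNA with fastp, Bowtie2, HISAT2, StringTie and RSEM, per the submitters' processing notes, which give no versions or roles. The sources used here do not give genome build, annotation or the treatment of multi-mapping fragments. Names came from RefSeq's gene table of ASM71507v2, in which 49268 of 61780 gene numbers were found. No coordinates or sequences were used.

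Groups and replicate numbers came from the sample titles. Values were analysed as log2(FPKM + 1), which understates changes of low genes, for the 40725 loci averaging 0.5 FPKM or more. Tests used limma 3.58.1 in R 4.3.3 (trend, robust, two-sided, Benjamini-Hochberg over all tested loci, threshold 0.05), with group, ISPH level or both as terms. Single values were tested by two-sided exact permutation over libraries (scipy 1.17.1, Python 3.11.15). Standard errors and intervals are those of limma, and ± values are SD of FPKM.

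The members and lists were chosen with earlier results of these data known. Named loci were the 5 members, the 4 named loci of highest r with ISPH and with dxs LOC107790348, and all loci with a MEP pathway symbol. On simulated data with the real means and the spread within groups, 200 loci averaging 5 FPKM or more were changed. Of these, 41% were called for a group change of 1 and 93% for a change of 2. For a change following the ISPH level, 0% were called when it spanned 1 and 76% when it spanned 2 over the range of ISPH, so the ISPH test could miss changes of the size seen here. The simulated ISPH runs held no group difference, unlike the real libraries, so the real test may find less. Alternatives were another pseudocount (0.1), filters (none, 2 FPKM), scalings (median of ratios, TPM, quantile), limma without trend and robust, a replicate block, and each library left out.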

Additional observations from a re-analysis of the deposited data

How the results depend on the processing

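Of 320 recomputed values for 28 results, 288 kept their direction and their side of the threshold (counts: within 1.5 times). The exact tests of shares and ratios could not reach the threshold in any setting. For the group change of dxs LOC107790348, the only member called, 7 of 14 values kept their side. The log2 change of dxs LOC107790348 was -0.68 but no longer passed with no filter, without trend and robust, and with the replicate block (limma, adjusted p of 0.0735, 0.0719 and 0.081), and ranged from -0.74 to -0.57 with 1 library left out (adjusted p of 0.0244 to 0.190). That of dxs LOC107818796 was -0.80 and passed with a minimum of 2 FPKM (limma, adjusted p = 0.0478), and ranged from -0.98 to -0.64 with 1 library left out. With 1 library left out, ISPH ranged from -0.15 to 2.25, DXS from 0.33 to 0.93 and DXR from -0.14 to 0.012, or from -0.18 to 1.4e-04 with ISPH in the model. Median-of-ratios scaling gave 0.88 for ISPH, -0.83 for dxs LOC107790348, -0.95 for dxs LOC107818796, 0.43 for DXS and -0.22 for DXR. Quantile normalization also gave -0.22 for DXR. The DXR change did not pass in either scaling (limma, adjusted p of 0.324 and 0.346). The DXR slope on ISPH turned to -0.011 with quantile normalization and -0.0072 with the replicate block, and ranged from -0.011 to 0.032 with 1 library left out. The DXR correlation turned to -0.12 with quantile normalization and -0.030 without the 2 libraries farthest from the median ISPH level, with a range of -0.17 to 0.30. The share of dxs LOC107790348, OE-NtispH minus WT, ranged from -0.54 to 3.51 percentage points.

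The number of loci called for the group was 737. It was 38 with no filter, 1375 with a minimum of 2 FPKM, 330 with median-of-ratios scaling, 53 without trend and robust, 68 with the replicate block, and 0 to 3103 with 1 library left out. With ISPH in the model it was 0, and up to 733 with 1 library left out. The cause of these differences was not tested. Same-numbered libraries did not deviate together (r of -0.16 to 0.045 over loci, and 0 of 3 OE-NtispH libraries correlated best with their own number). Whether they shared plants, harvest or preparation is not known, and weak r cannot decide it. Read depth is unknown, and 3 libraries per group limit what could be called.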

Other observations

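The spread of the entry-step loci differed between the labelled groups in these libraries, seen after the values were known and not tested. On the log2 scale the SD of dxs LOC107790348 was 0.19 in OE-NtispH and 0.0020 in WT, and 0 of the 1573 loci with 0.5 to 2 times its mean level had a smaller SD in WT. For dxs LOC107818796 the SD was 0.35 in OE-NtispH and 0.067 in WT, and for DXS 0.69 in OE-NtispH and 0.063 in WT. The opposite held for ISPH, with 1.08 in OE-NtispH and 2.40 in WT, and for ipi2, with 0.054 in OE-NtispH and 0.51 in WT.

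The correlation of psbA with ISPH was not shared by the plastid genome as a whole. Over 24 plastid-encoded loci averaging 5 FPKM or more, r with ISPH ranged from -0.66 to 0.88 with a median of 0.12, and 15 were above 0. All 24 share the same 6 libraries.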
